A study of Homo sapiens with 6 samples.

Results

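The genes described here are 10 members of the NF-kB system, taken by symbol from a table of 52408 genes: the subunit genes NFKB1, NFKB2, REL, RELA and RELB, the inhibitor genes NFKBIA and NFKBIE, and the target genes TNFAIP3, BIRC3 and ICAM1. All 10 were found in the table, and all 10 passed the filter on low counts that left 15648 genes to test. The RNA came from HepG2, a line grown from a human liver carcinoma. One group was exposed to ellagic acid (EA), a polyphenol of berries and nuts that was dissolved in DMSO, at 50 µM for 24 h, and the other to an equal volume of DMSO alone, in the same medium with serum and antibiotics. Each group had 3 libraries. Whether the 3 were grown as separate cultures is not stated in the labels, so the spread behind each p-value may be technical.

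NF-kB is a family of transcription factors that work as pairs of subunits. RelA, RelB and c-Rel carry a transactivation domain, whereas NFKB1 and NFKB2 encode the precursors p105 and p100, which are cut to the DNA-binding subunits p50 and p52. In resting cells the pairs are held in the cytoplasm by IkB proteins, and the IkB kinase (IKK) complex marks these for destruction when receptors for TNF, interleukin 1 or bacterial products are engaged. Active NF-kB switches on its own brakes, among them IkB-alpha and the ubiquitin-editing enzyme A20. In liver cells the pathway is known for the acute phase response and for protection from TNF-induced death. Only RNA was measured here, so the position of NF-kB in the cell and its binding to DNA are not seen.

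Promoter sequences are shown because NF-kB genes are known to be regulated by NF-kB itself. They are those of BIRC3 and NFKBIA, the called members that rose most and least, and of TNFAIP3, NFKB1 and ICAM1, which were not called. Each window shown held a match, and the windows of RELA, NFKB2 and REL are not shown. The RefSeq table (build GRCh38.p14) held 12 windows of 300 bases, from 250 bases before to 50 after a transcription start, for 8 of the 10 members, with more than 1 start for NFKB1, NFKB2 and RELA. RELB and NFKBIE had no window. Each is given 5′ to 3′ along the gene, and capitals mark matches, on either strand, to the 10-base kappaB consensus or to the shorter GGAAATTCC, which overlaps it.
BIRC3, chr11:102317234-102317533, plus strand: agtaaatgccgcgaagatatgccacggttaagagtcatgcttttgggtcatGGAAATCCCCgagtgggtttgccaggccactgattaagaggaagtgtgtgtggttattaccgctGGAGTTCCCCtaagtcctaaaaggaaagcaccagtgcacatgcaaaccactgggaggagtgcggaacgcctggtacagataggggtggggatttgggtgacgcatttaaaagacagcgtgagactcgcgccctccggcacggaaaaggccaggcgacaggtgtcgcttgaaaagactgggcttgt
NFKBIA, chr14:35404700-35404999, minus strand: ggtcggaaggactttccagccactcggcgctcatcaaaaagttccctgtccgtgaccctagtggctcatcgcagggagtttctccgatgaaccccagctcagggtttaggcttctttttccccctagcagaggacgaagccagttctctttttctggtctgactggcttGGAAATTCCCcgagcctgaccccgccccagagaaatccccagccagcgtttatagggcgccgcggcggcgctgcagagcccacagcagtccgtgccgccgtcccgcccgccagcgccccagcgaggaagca
TNFAIP3, chr6:137867009-137867308, plus strand: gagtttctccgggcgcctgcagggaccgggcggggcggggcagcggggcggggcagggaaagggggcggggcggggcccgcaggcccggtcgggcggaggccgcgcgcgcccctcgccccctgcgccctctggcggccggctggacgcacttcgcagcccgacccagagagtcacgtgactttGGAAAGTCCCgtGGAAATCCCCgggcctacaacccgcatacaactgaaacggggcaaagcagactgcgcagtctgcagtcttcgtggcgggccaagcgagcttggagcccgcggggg
NFKB1, chr4:102501109-102501408, plus strand: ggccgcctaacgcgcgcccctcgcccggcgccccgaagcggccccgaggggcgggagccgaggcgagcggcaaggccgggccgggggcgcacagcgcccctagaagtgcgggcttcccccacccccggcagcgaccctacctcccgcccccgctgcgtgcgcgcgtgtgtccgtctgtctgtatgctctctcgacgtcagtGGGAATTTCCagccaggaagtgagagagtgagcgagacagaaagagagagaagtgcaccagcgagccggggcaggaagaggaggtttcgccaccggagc
ICAM1, chr19:10270870-10271169, plus strand: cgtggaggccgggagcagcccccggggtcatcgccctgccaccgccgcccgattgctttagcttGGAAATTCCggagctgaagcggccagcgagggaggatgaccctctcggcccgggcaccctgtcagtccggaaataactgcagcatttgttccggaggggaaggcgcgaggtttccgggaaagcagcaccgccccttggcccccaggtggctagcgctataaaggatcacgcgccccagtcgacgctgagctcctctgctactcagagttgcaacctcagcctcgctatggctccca
A match to the kappaB consensus was found in 7 of the 12 member windows, and 11.3% of all 35116 windows in the table held one. By gene, 6 of the 8 members had a match in at least 1 window (NFKB1, NFKB2, REL, NFKBIA, TNFAIP3 and BIRC3), as did 17.2% of the 10460 tested genes with a window. The other window of NFKB1, which is not shown, held no match. The ICAM1 window held no match to the full consensus but did hold GGAAATTCC, a sequence added after the values were seen. That sequence occurred in 0.461% of windows, but having been picked afterwards its presence in ICAM1 tests nothing. Neither RELA window held a match to either sequence. A match describes the letters only and was not tested as a binding site.

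With EA, transcripts of 4 of the 5 subunits, of both inhibitors and of BIRC3 rose, so that 7 of the 10 members were higher and 0 lower in edgeR's quasi-likelihood test (adjusted p under 0.05). Those of NFKB1, TNFAIP3 and ICAM1 were not called. Among all 15648 tested genes 81.0% were called, 40.5% higher and 40.5% lower. A share of 7 in 10 called is therefore no more than the background. No called member was lower, but the members were chosen with earlier results of these data known, so their direction is no test. The number lower was 1 with no filter on low counts (NFKB1) and 1 without EA replicate 3 (ICAM1). The median log2 fold change of the members was 0.63, against 0.00 over all tested genes. CPM values of the groups did not overlap for 8 of the 10 members, and for 82.9% of all tested genes. The direction of change is relative to the other genes of a library, since levels are CPM, counts scaled to the TMM-adjusted library size. Less RNA per cell and fewer cells cannot be told apart in such data.

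**Figure D1:**
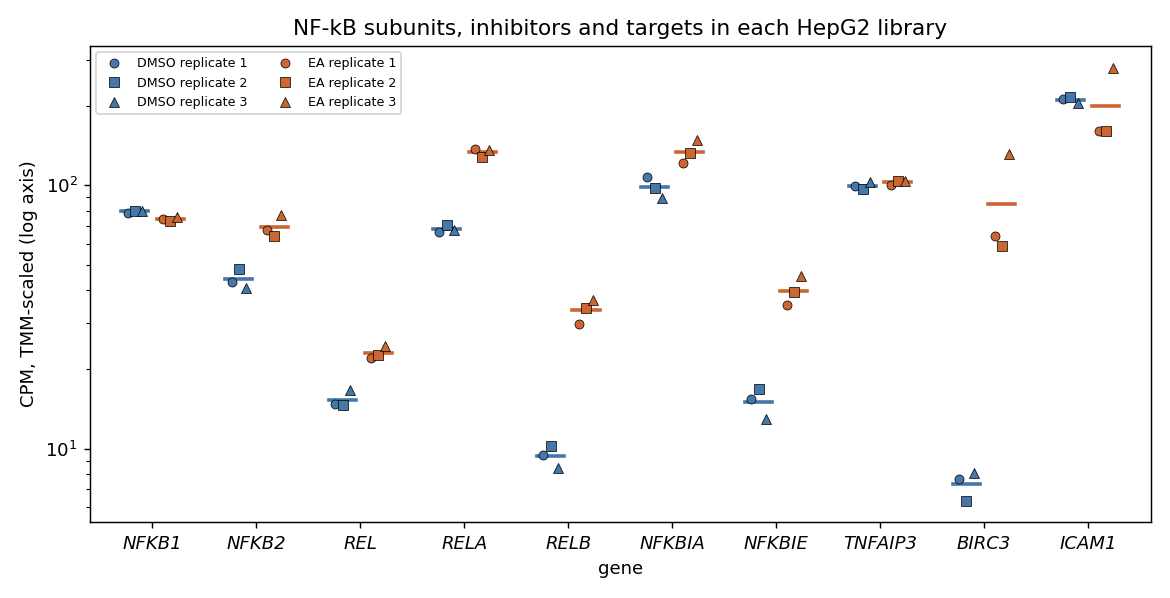
CPM (TMM-scaled, log axis) of the 10 genes in each library, DMSO in blue and EA in orange, with the group mean as a bar and a marker shape for each replicate number. RELB, RELA, NFKBIE and BIRC3 stand clear of their DMSO values in all 3 EA libraries, whereas for ICAM1 the EA libraries lie on both sides of the DMSO ones.

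Among the subunits the largest rise was that of RELB (ENSG00000104856), which encodes the partner of p52 in the non-canonical pathway. Its level was 9.42, 10.2 and 8.42 CPM in DMSO replicates 1 to 3 and 29.7, 34.2 and 36.8 CPM in EA replicates 1 to 3. Every EA value was more than double every DMSO value, and the log2 fold change was 1.85 (SE 0.11, adjusted p = 3.74e-10 in edgeR's test). RELA (ENSG00000173039) encodes p65, the main transactivating subunit of the canonical pathway. It stood at 66.6, 70.9 and 67.5 CPM in DMSO and at 137, 128 and 136 CPM in EA. The EA libraries were close to each other and all well above DMSO, with a log2 fold change of 0.97 (SE 0.07, adjusted p = 1.86e-09 in edgeR's test).

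NFKB2 (ENSG00000077150) had 42.8, 48.0 and 40.9 CPM in DMSO and 67.6, 64.4 and 76.9 CPM in EA. The groups were apart, with a log2 fold change of 0.67 (SE 0.09, edgeR adjusted p = 3.78e-06). REL (ENSG00000162924), which encodes c-Rel, a subunit best known from lymphocytes, had 14.7, 14.7 and 16.6 CPM in DMSO and 22.0, 22.6 and 24.5 CPM in EA. Its rise was of like size, with a log2 fold change of 0.59 (SE 0.10, edgeR adjusted p = 4.08e-05). In GENCODE 29 a non-coding gene on the same strand, AC010733.2, covers 5702 of the 13170 bases of REL exons. It had 0 reads in every library, and the sources used here do not say how reads of the shared stretch were counted, so the level of REL is uncertain.

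NFKB1 (ENSG00000109320), the gene of the p50 precursor, went the other way in value. It had 78.6, 80.1 and 79.9 CPM in DMSO and 74.6, 73.3 and 75.9 CPM in EA, so that the groups did not overlap although they lay close together. The log2 fold change was -0.09 (SE 0.06) and edgeR's adjusted p was 0.194, ranging from 0.0149 to 0.487 over the alternatives. The one alternative with a call was the fit without a filter (-0.22, adjusted p = 0.0149), in which the median of all genes was 0.25 in place of 0.00.

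The makeup of the subunit transcripts differed between the groups. CPM per kilobase of merged exon length, summed over the 5 subunits, was 39.3 ± 1.49 in DMSO and 64.7 ± 2.99 in EA (SD, n = 3). Of that sum NFKB1 held 32.4% ± 1.08 in DMSO and 18.4% ± 0.551 in EA, and RELB 7.84% ± 0.524 and 17.1% ± 1.45. RELA went from 31.9% ± 0.354 to 37.8% ± 1.52. The shares of NFKB2 (24.9% ± 1.16 and 24.0% ± 1.13) and REL (2.97% ± 0.294 and 2.70% ± 0.0629) differed by no more than their spread. By level per length the order in DMSO was NFKB1 (12.7 ± 0.130 CPM per kilobase), RELA (12.5 ± 0.418), NFKB2 (9.79 ± 0.822), RELB (3.08 ± 0.298) and REL (1.17 ± 0.0844), and the first pair did not differ beyond their spread. In EA the order was RELA (24.5 ± 0.884 CPM per kilobase), NFKB2 (15.5 ± 1.46), NFKB1 (11.9 ± 0.205), RELB (11.1 ± 1.18) and REL (1.75 ± 0.0988). There NFKB1 and RELB did not differ beyond their spread. Merged exons cover all annotated transcripts of a gene, which can exceed the length of those expressed. Orders and shares between genes, here and below, therefore depend on the annotation.

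**Figure D2:**
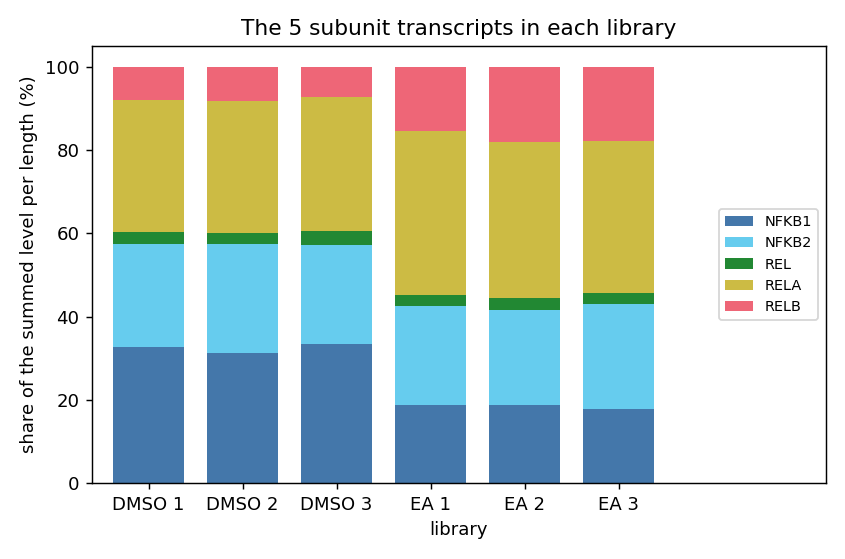
Share of each subunit gene, in percent, in the summed CPM per kilobase of exon of the 5 subunit genes, for each library. The NFKB1 share lies between 31.3% and 33.4% in DMSO and between 17.8% and 18.8% in EA, and the RELB share between 7.24% and 8.22% and between 15.4% and 18.0%.

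Both IkB genes rose, NFKBIE by more than NFKBIA. NFKBIE (ENSG00000146232), the gene of IkB-epsilon, had 15.4, 16.8 and 12.9 CPM in DMSO and 35.0, 39.5 and 45.1 CPM in EA. All EA values were more than double the highest DMSO value, with a log2 fold change of 1.41 (SE 0.11, edgeR adjusted p = 2.62e-08). NFKBIA (ENSG00000100906) encodes IkB-alpha, the inhibitor that is remade within the hour when NF-kB is active. It had 108, 97.8 and 89.7 CPM in DMSO and 121, 133 and 148 CPM in EA. The groups were apart but the nearest values, DMSO replicate 1 and EA replicate 1, lay close, and the log2 fold change was 0.45 (SE 0.09, edgeR adjusted p = 0.000207). Per kilobase NFKBIA was the more abundant of the pair, at 56.5 ± 5.72 CPM against 15.4 ± 1.95 for NFKBIE in EA.

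The other genes of the IkB family split. NFKBIB, the gene of IkB-beta, rose from 19.3 ± 2.04 to 43.1 ± 4.34 CPM (SD, n = 3; log2 fold change 1.16, SE 0.10). NFKBIZ, which encodes the nuclear co-activator IkB-zeta, fell from 31.4 ± 2.26 to 15.8 ± 0.408 CPM (log2 fold change -0.99, SE 0.09). BCL3, a nuclear partner of p50 and p52, rose by 0.44 on the log2 scale (SE 0.10), and NFKBID was not called (0.19, SE 0.21). Of 6 genes in this list 4 were higher, 1 lower and 1 not called, with a median log2 fold change of 0.44.

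TNFAIP3 (ENSG00000118503), which encodes the ubiquitin-editing enzyme A20, had nearly the same level in all libraries. It stood at 99.5, 96.8 and 103 CPM in DMSO and at 101, 104 and 104 CPM in EA, and the groups overlapped. The log2 fold change was 0.04 (SE 0.06, edgeR adjusted p = 0.524), and over the alternatives it ran from -0.09 to 0.08, with 0 calls. An antisense gene, AL357060.1, shares 95 bases of exon with TNFAIP3 in GENCODE 29 and had 61 to 157 reads per library, against 1615 to 2620 reads of TNFAIP3.

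BIRC3 (ENSG00000023445) encodes cIAP2, a ubiquitin ligase of the TNF receptor complex that restrains cell death, and showed the largest change. It had 7.67, 6.35 and 8.10 CPM in DMSO and 64.4, 59.0 and 132 CPM in EA. All EA libraries were far above DMSO, and EA replicate 3 was about double the others, at 2.14 times the mean of EA replicates 1 and 2. The log2 fold change was 3.53 (SE 0.43, edgeR adjusted p = 0.000866). The mean of EA replicates 1 and 2 was 8.37 times that of DMSO, and EA replicate 3 was 17.9 times that of DMSO. Without that library the log2 fold change was 3.03.

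ICAM1 (ENSG00000090339), the adhesion molecule that leukocytes bind on inflamed cells, was the most abundant member in DMSO per kilobase of exon (57.0 ± 1.57 CPM, n = 3). It had 213, 216 and 205 CPM in DMSO and 161, 161 and 280 CPM in EA. EA replicates 1 and 2 were below every DMSO library and EA replicate 3 was above every one. With all libraries the log2 fold change was -0.07 (SE 0.24, edgeR adjusted p = 0.797). Without EA replicate 3 it was -0.42 and was called (adjusted p = 1.79e-11), and without EA replicate 1 or 2 it was 0.05 in each case and was not called (0.864 and 0.863). The direction of ICAM1 thus rests on 1 library.

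**Figure D3:**
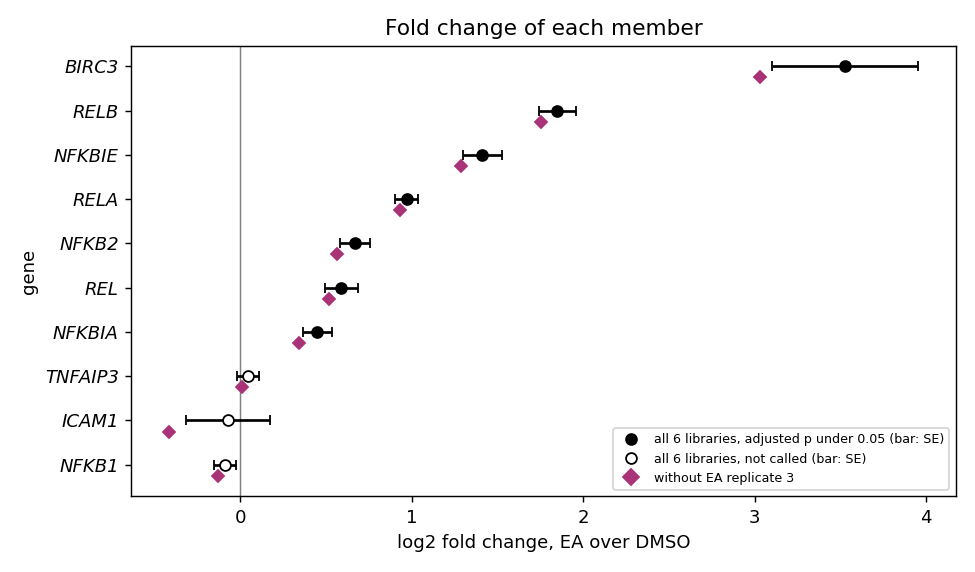
Log2 fold change of EA over DMSO for each gene with all 6 libraries (circles, bars are SE; filled where the adjusted p was under 0.05) and without EA replicate 3 (diamonds). BIRC3 goes from 3.53 to 3.03 and ICAM1 from -0.07 to -0.42, and the 7 filled genes stay to the right of 0.

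EA replicate 3 stood apart in other genes too. Over 14340 tested genes with a mean of at least 1 CPM in a group, its ratio to the mean of EA replicates 1 and 2 had a median of 1.01 and a 5th to 95th percentile range of 0.619 to 1.53, and it was over 1.5 for 5.44% of them. Of the members BIRC3 (2.14) and ICAM1 (1.74) lay past 1.5, and the other 8 ranged from 1.02 (TNFAIP3) to 1.21 (NFKBIE). CXCL8, the gene of interleukin 8, was likewise higher in EA replicate 3 (809 CPM) than in EA replicates 1 and 2 (467 and 474 CPM). The gene of the chemokine CCL20 was lower there (177 against 300 and 319 CPM). The part of that library's own features in these results was not tested.

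Ratios between pairs of members within a library do not depend on how libraries were scaled. The reads of RELB per read of RELA went from 0.142, 0.144 and 0.125 in DMSO to 0.217, 0.267 and 0.271 in EA. Those of NFKB2 per NFKB1 went from 0.545, 0.599 and 0.512 to 0.906, 0.878 and 1.01. NFKBIE per NFKBIA went from 0.143, 0.172 and 0.144 to 0.289, 0.298 and 0.304. In these 3 pairs the less abundant transcript gained on the other in every EA library.

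For TNFAIP3 and NFKBIA the ratio to RELA was lower in every EA library. TNFAIP3 per RELA went from 1.49, 1.37 and 1.53 reads in DMSO to 0.733, 0.811 and 0.767 in EA, and NFKBIA per RELA from 1.62, 1.38 and 1.33 to 0.885, 1.04 and 1.09. NFKBIE went the other way against RELA, with a log2 fold change of 1.41 against 0.97, a pair whose ratio was not among those tested. REL per RELA was lower by less, going from 0.221, 0.207 and 0.247 to 0.161, 0.177 and 0.181. BIRC3 per read of BIRC2, which encodes the related cIAP1, went from 0.0688, 0.0593 and 0.0723 to 0.411, 0.403 and 0.774. On the log2 scale the differences were 0.87 for RELB/RELA, 0.76 for NFKB2/NFKB1, 0.96 for NFKBIE/NFKBIA, -0.92 for TNFAIP3/RELA, -0.52 for NFKBIA/RELA, -0.38 for REL/RELA and 2.92 for BIRC3/BIRC2. In each of the 7 ratios the groups did not overlap. The CPM of 82.9% of single tested genes did not overlap either, and the share over other gene pairs was not computed. The exact two-sided permutation test gave p = 0.1 before and after Benjamini-Hochberg adjustment over 7. That is the smallest value that 3 against 3 allows, so none could pass 0.05.

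**Figure D4:**
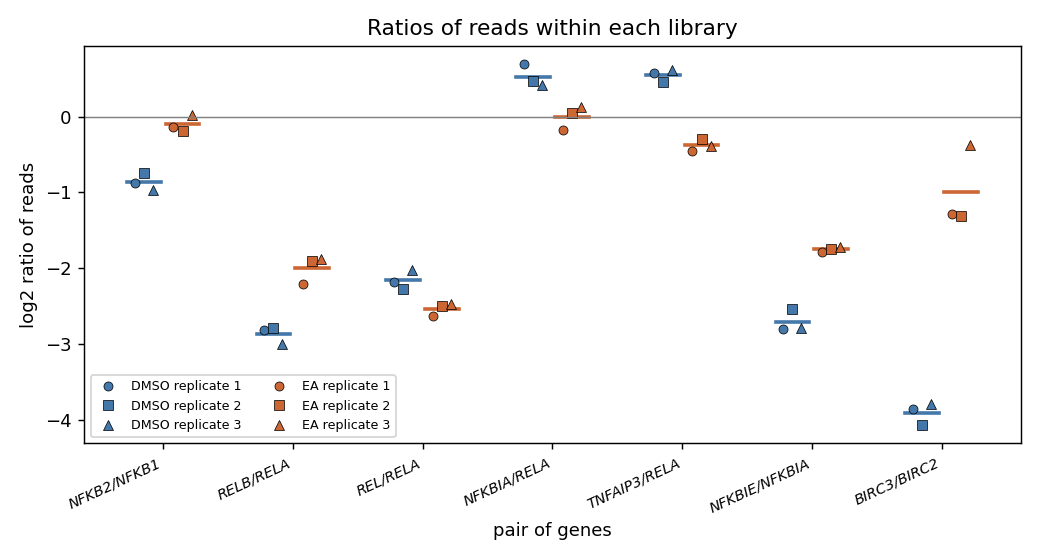
Log2 ratio of the reads of 2 genes within each library (0.5 added to each), DMSO in blue and EA in orange, with group means as bars and a marker shape for each replicate number. For RELB/RELA, NFKB2/NFKB1, NFKBIE/NFKBIA and BIRC3/BIRC2 the EA libraries lie above DMSO, and for REL/RELA, NFKBIA/RELA and TNFAIP3/RELA below it.

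Upstream of the members, receptors moved in both directions. Of 9 tested receptor genes 3 were higher, 5 lower and 1 not called (median log2 fold change -0.20). The counts of this and the other lists stand against 40.5% higher and 40.5% lower over all tested genes. TLR4, the receptor for bacterial lipopolysaccharide, rose from 0.803 ± 0.187 to 47.1 ± 5.03 CPM (log2 fold change 5.87, SE 0.15). IL1R1, the signalling receptor of interleukin 1, fell from 193 ± 10.8 to 84.1 ± 15.8 CPM. TNFRSF12A, the receptor of the cytokine TWEAK and an activator of the non-canonical pathway, rose from 103 ± 6.74 to 211 ± 12.0 CPM. By contrast LTBR and TNFRSF11A, which also activate that pathway, were called lower (log2 fold change -0.20, SE 0.07, and -0.60, SE 0.14). LTBR lost its call in DESeq2. TNFRSF1A, the main TNF receptor, fell slightly (log2 fold change -0.29, SE 0.08). TLR2 was at 1.26 ± 0.216 and 0.174 ± 0.119 CPM (log2 fold change -2.86).

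Of 19 tested adaptor genes 13 were higher, 3 lower and 3 not called (median 0.54). Of the higher ones, TRAF5 (edgeR adjusted p = 0.0144) lost its call in 4 of 14 alternatives and TRAF2 (0.00658) in 3. BCL10, part of the CARD-BCL10-MALT1 complex that activates IKK, rose from 21.6 ± 0.819 to 107 ± 4.24 CPM. Of the same complex, MALT1 was called lower (log2 fold change -0.27, SE 0.07) and CARD10 higher (0.47, SE 0.09). TICAM1, the TRIF adaptor of TLR3 and TLR4, rose from 10.2 ± 1.46 to 45.2 ± 6.65 CPM. Within the interleukin 1 branch the kinase genes parted, with IRAK2 higher (51.9 ± 0.720 to 128 ± 14.1 CPM) and IRAK1 lower (210 ± 9.84 to 105 ± 4.05 CPM). The shared adaptor MYD88 fell by 0.86 on the log2 scale (SE 0.11). Without EA replicate 3 the lower adaptors numbered 5, with TRAF3, which promotes the breakdown of NF-kB-inducing kinase, at -0.38 (edgeR adjusted p = 6.91e-07) against -0.17 and not called (0.196) with all libraries.

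Of 9 tested genes of the IKK complex and its kinases 5 were higher, 3 lower and 1 not called (median 0.42). The catalytic subunit genes parted little from DMSO: CHUK (IKK-alpha) rose from 62.6 ± 1.30 to 83.6 ± 7.47 CPM while the log2 fold change of IKBKB (IKK-beta) was 0.00 (SE 0.08, not called). MAP3K14, the NF-kB-inducing kinase of the non-canonical pathway, rose from 10.0 ± 1.02 to 21.4 ± 3.14 CPM. TAB2 and TAB3 tie the kinase TAK1 to ubiquitin chains. TAB2 rose from 115 ± 6.66 to 326 ± 33.8 CPM and TAB3 from 142 ± 5.53 to 283 ± 44.4 CPM, while their partner TAB1 and the TAK1 gene MAP3K7 fell (-0.69 and -0.68). The third lower gene, MAP3K8, was near the threshold (log2 fold change -0.24, edgeR adjusted p = 0.0429) and lost its call in 9 of 14 alternatives, where 2 genes of the list were lower.

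In the list named ubiquitin editing and other brakes, 5 of 11 tested genes were higher, 3 lower and 3 not called (median 0.18). TNFAIP3 was one of those not called. Another, OTULIN (log2 fold change 0.18, edgeR adjusted p = 0.0522), was near the threshold and was called higher in 7 of 14 alternatives. Some partners of A20 were among the higher genes, with TNIP1 going from 63.0 ± 2.86 to 187 ± 12.0 CPM, TAX1BP1 from 222 ± 9.78 to 589 ± 24.2 and the ubiquitin ligase ITCH from 236 ± 11.2 to 479 ± 15.7. TNIP2, another partner, was not called (log2 fold change 0.12, SE 0.08), and TNIP3 was below the filter. The 3 lower genes, SHARPIN (-0.85), RBCK1 (-0.40) and RNF31 (-1.15), encode the subunits of the linear ubiquitin chain assembly complex, LUBAC. That complex builds chains and is not a brake, so the 3 lower genes of this list are not brakes.

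All 10 genes in the list of survival targets were higher (median 1.05), BIRC3 included, against 40.5% of all tested genes. The lists were chosen with earlier results of these data known, so this count is no test of the pathway. BIRC2 and TRAF1 are also in the adaptor list. The stress gene GADD45B rose from 7.07 ± 0.943 to 60.8 ± 9.16 CPM, the caspase-8 inhibitor gene CFLAR from 126 ± 6.25 to 284 ± 5.69 and XIAP from 78.3 ± 1.83 to 149 ± 4.71. TRAF1, which is bound by cIAP1 and cIAP2, rose from 2.55 ± 0.1005 to 12.5 ± 1.89 CPM. SOD2, mitochondrial superoxide dismutase, rose by 0.55 on the log2 scale (SE 0.07). Of the adhesion list, ICAM1 apart, VCAM1 had 0 reads in all 6 libraries and SELE 4 reads in DMSO and 0 in EA. MADCAM1 was at 1.42 and 0.808 CPM (log2 fold change -0.82, edgeR adjusted p = 0.0141).

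Cytokine targets held some of the largest rises and many silent genes. Of 19 matched genes 7 were tested, and 4 of them were higher, 1 lower and 2 not called (median 2.07). CSF2, the gene of GM-CSF, was silent in DMSO (0 reads) and had 478 reads in EA. With 3 reads over the DMSO group as the limit, it was at least 219.2-fold higher. LIF rose from 38.7 ± 3.04 to 203 ± 8.96 CPM and CSF1 from 40.8 ± 1.76 to 171 ± 33.2, whereas IL32 fell from 123 ± 5.07 to 46.2 ± 3.94. CXCL8, chosen after its values were seen, rose from 8.02 ± 0.814 to 583 ± 196 CPM (log2 fold change 6.18, SE 0.33). In contrast IL6 had 1 read in DMSO and 0 in EA, CXCL1 4 and 2, and CCL2 and CXCL6 none in any library. TNF had 4 reads in DMSO and 20 in EA, and was below the filter.

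Acute phase genes of hepatocytes, only some of which NF-kB is known to help induce, were not among the genes called higher. Of 5 tested genes 0 were higher, 4 lower and 1 not called (median -1.67). The gene not called, LCN2, was at 0.801 ± 0.285 CPM in DMSO and 1.26 ± 0.199 in EA. Its log2 fold change was 0.66 (SE 0.32, edgeR adjusted p = 0.0683), and it was called higher without EA replicate 3 (0.69). The hepcidin gene HAMP went from 13.7 ± 1.07 to 0.189 ± 0.0741 CPM, ORM1 from 98.2 ± 18.6 to 8.05 ± 0.581, complement factor CFB from 57.6 ± 2.82 to 18.0 ± 1.43 and C3 from 3376 ± 84.3 to 1837 ± 142. SAA1, SAA2 and CRP had 6, 3 and 0 reads over the DMSO libraries and 2, 2 and 2 over the EA libraries. These genes also depend on hepatocyte factors, and 8 of 9 hepatocyte markers fell. The summed level of the 9 was 49124 to 52000 CPM in DMSO and 13170 to 13679 in EA. Most of the sum in DMSO was APOB, which went from 29447 ± 1102 to 3080 ± 692 CPM. The other marker, APOA1, was called higher (log2 fold change 0.35, SE 0.13), though its groups overlapped. The part of the markers' fall in the acute phase result was not tested.

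**Figure D5:**
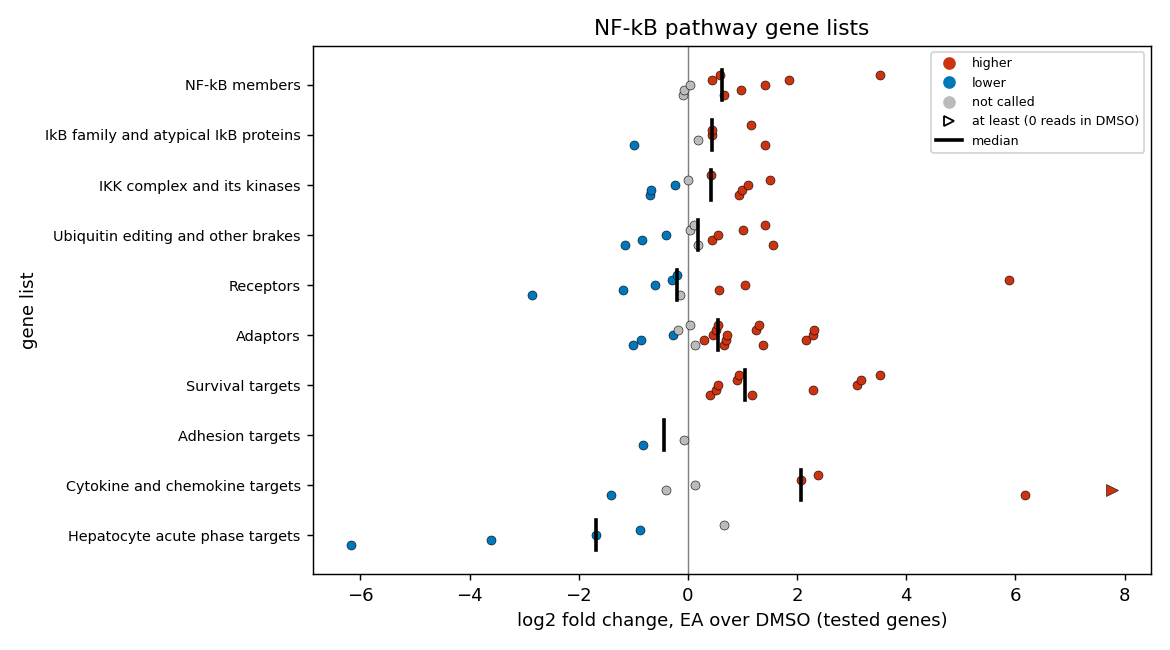
Log2 fold change of EA over DMSO for each tested gene of the 10 lists, coloured by call, with the list median as a black bar; the triangle is CSF2 at its lower bound, since it had 0 reads in DMSO. Survival targets all lie to the right of 0 (median 1.05), acute phase targets mostly to the left (median -1.67), and the receptors on both sides.

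Across the lists, 94 pathway genes other than the members were matched, of which 39 were higher, 21 lower, 11 not called and 23 below the filter. Their median log2 fold change was 0.45, against 0.63 for the members and 0.00 for all tested genes. Most single genes in the lists would be called in any case, since 81.0% of all genes were, 40.5% higher and 40.5% lower.

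Reads assigned to genes numbered 22987425 to 25973621 in DMSO and 15738089 to 19202292 in EA, so 3 reads in a library, the limit that a count of 0 allows, correspond to 0.117 to 0.187 CPM. Leukocyte markers PTPRC, CD3E and CD68 had 0 reads in all libraries, and 3 of 8 genes of that list in all. The summed level of the list was 1770 to 1851 CPM in DMSO and 364 to 457 in EA, most of it LYZ. LYZ and CD14 were called lower, and 2 genes of the list were called higher. These were LCP1, the gene of an actin-bundling protein, which rose from 9.38 ± 0.332 to 88.1 ± 14.99 CPM (log2 fold change 3.23), and CSF1R, the receptor of the cytokine CSF1, which rose from 0.109 ± 0.0269 to 1.85 ± 0.296 CPM (4.02). The part of these genes in the results on the members was not tested. The summed endothelial markers were at 2.32 to 2.44 and 3.34 to 4.42 CPM, with VWF higher (1.07 to 3.14 CPM) and CDH5 lower (1.30 to 0.336 CPM), and those of stellate cells and fibroblasts at 16.4 to 17.6 and 4.61 to 6.45, with DCN and COL1A2 at 0 reads throughout.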

How the data were processed

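The authors deposited 1 table of raw, unscaled read counts per gene for the 6 libraries. The submitters' processing notes name HTSeq 0.6.1, HISAT, cutadapt 1.9.1, bcl2fastq 2.17.1.14 and hg19. They do not name the annotation, the HISAT version or the strand setting, so a gene's reads cannot be parted from those of an overlapping or antisense gene. After filterByExpr and TMM scaling, the groups were tested with edgeR 4.0.16 in R 4.3.3 (quasi-likelihood F test, robust), with p-values adjusted by Benjamini-Hochberg over all tested genes and a threshold of 0.05. Each SE was computed as the log2 fold change divided by the root of its F statistic. The test was tested on simulated counts. Alternatives were RLE, upper-quartile and library-size scaling, DESeq2 1.42.0, limma-voom (limma 3.58.1), no filter, 1 CPM in 3 libraries, a replicate block and each library left out.

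The members and lists were chosen with earlier results of these data known. All members are named, and in each list the genes with the 4 smallest p carry values. TNFRSF1A, MYD88, TRAF2, TRAF3, TRAF5, MAP3K7, MAP3K8, CHUK, IKBKB and OTULIN were added after their values were seen. LTBR, TNFRSF11A, MALT1, CARD10, TNIP2, APOB and APOA1 were also added then. So were RBCK1, RNF31, SOD2, CXCL8, CCL20, LCN2 and the genes with few reads, as was the sequence GGAAATTCC. PECAM1, IKBKE, IKBKG, OTUD7B and CCL5 had no match by symbol or identifier and are not analysed here. Exon lengths and overlaps came from GENCODE 29, on another build, so no gene coordinates are given; promoter windows are RefSeq's on GRCh38.p14. The limits given for counts of 0 cover counting error alone, as reads lack molecular identifiers and are not independent.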

Additional observations from a re-analysis of the deposited data

How the results depend on the processing

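All 14 alternatives kept the calls and directions of BIRC3, RELB, NFKBIE, RELA, NFKB2, REL and NFKBIA, with log2 fold changes between 0.32 (lowest, NFKBIA) and 3.72 (highest, BIRC3). The number of members called lower, 0 with all libraries, was 1 with no filter (NFKB1), and 0 to 1 when each library was left out (ICAM1 without EA replicate 3). For TNFAIP3 there was no call in any alternative, though the sign of its value was negative with no filter.

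With no filter, 6 receptors were higher in place of 3, as genes with few reads entered (TNFRSF1B, TLR3 and TLR5), 5 adaptors were lower in place of 3 (TRAF3 and NOD2 added), and 2 cytokine targets were lower in place of 1 (CXCL5 added). In DESeq2, 0 adhesion targets were lower in place of 1. With each library left out in turn, the lower adaptors ranged from 3 to 5, the lower adhesion targets from 0 (without EA replicate 2) to 2 (without EA replicate 3, ICAM1 added), the lower cytokine targets from 1 to 2 (without EA replicate 3, CXCL2 added) and the higher acute phase targets from 0 to 1 (without EA replicate 3, LCN2 at 0.69). Beyond what is said here the cause was not tested. Of 1131 alternative values for 81 genes, 1081 kept direction and side of the threshold, 16 (of 6 genes, ICAM1 and TNFAIP3 among them) changed sign while not called in either fit, 19 lost a call (9 of them MAP3K8), 15 gained one and 0 changed sign with a call.

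Replicate numbers are shared by the groups, but same-numbered libraries did not deviate together (correlations of -0.08, 0.03 and -0.02). With a replicate block, 7 members were again higher and 0 lower, and 12537 genes were called in place of 12680. For each of the 7 ratios the exact two-sided permutation test gave p = 0.25 within pairs, the smallest that 3 pairs allow, in place of 0.1, so neither form of that exact test could pass 0.05. Genes with few or no reads, such as the silent cytokine genes, could not be tested at this depth.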

Other observations

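BIRC3 lies beside BIRC2 and near a cluster of matrix metalloproteinase genes, and ICAM1 lies within a cluster of ICAM genes, by the gene order of RefSeq. Both genes next to BIRC3 rose, with log2 fold changes below its 3.53. YAP1 on one side went from 264 ± 8.73 to 387 ± 31.9 CPM (log2 fold change 0.55, SE 0.07), BIRC2 on the other rose by 0.52 (SE 0.07), and TMEM123, next after it, fell by 0.84 on the log2 scale (SE 0.08). MMP7, MMP20 and MMP27 had 5, 11 and 0 reads over the DMSO libraries and 17, 4 and 0 over the EA libraries, and were below the filter. For MMP7 the groups did not overlap (0.0696 and 0.318 CPM on average). Around ICAM1, MRPL4 had a log2 fold change of -1.36 (SE 0.08) and DNMT1, the maintenance DNA methyltransferase, one of -0.51 (SE 0.06). ICAM5 was called higher near the threshold (0.50, SE 0.22, edgeR adjusted p = 0.0461). Its groups overlapped, with 2.81 CPM in EA replicate 2 and 3.35 CPM in DMSO replicate 2. ICAM4 had 0 reads in all libraries.

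The genes whose levels over the 6 libraries were most like those of BIRC3, by Euclidean distance between log2 CPM less each gene's DMSO mean, were LIPH (distance 0.35), TMEM233 (0.37) and SYNPO (0.47). LIPH had 9.15 and 8.05 CPM in EA replicates 1 and 2 and 15.6 in EA replicate 3, and SYNPO 28.9, 30.2 and 46.4, so both were high in the same library as BIRC3. TMEM233 had 0 reads in DMSO and at most 1.43 CPM in EA. The log2 CPM used for the distance had a prior count of 2 reads added. For a gene with so few reads the distance therefore depends on that added count.

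Over the tested genes with a promoter window, the 1803 with a kappaB match in at least 1 window had a median log2 fold change of 0.02, with 41.8% called higher and 41.7% lower. The 8657 without one had a median of -0.09, with 38.6% higher and 44.2% lower. No test of this difference was made.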
